A study of Mus musculus with 15 samples.

Results

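Transcripts of 33 genes that mark classical monocytes and macrophages were followed in whole blood of mice given ABBV-075 (mivebresib), a small molecule that blocks the bromodomains of the BET proteins. The 33 are named genes, each represented by its brightest probe set, among the 18193 genes that the array annotation names singly. Of these, 28 were taken as monocyte or macrophage genes, and 5 more (Tgfbi, Capg, Sla, Ms4a6d and Emp3) were added because they were lower on the treated arrays of this same study. The values of those 5 are therefore given as a description, without a test. The 28 were themselves chosen with earlier results of these data known. The series set out to look for blood transcripts that respond to the compound. Its 15 arrays form 3 groups of 5, 1 array per mouse, with blood taken 6 h after vehicle, after ABBV-075 at 1 mg/kg or after ABBV-075 at 5 mg/kg. Total RNA was labelled with biotin by a 3' amplification protocol and read on an Affymetrix mouse expression array. The sources used here do not give strain, sex, age or route of dosing. Values are log2 intensities after quantile normalisation, with a floor at an intensity of 16 (log2 4.00), so a value of 4.00 means at or under the floor. Probe sets differ in their response, so levels are compared between arrays for one gene and never between genes.

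Classical monocytes leave the bone marrow, circulate for a short time and enter tissues, where they can become macrophages. They carry the receptor for colony-stimulating factor 1, scavenger and inhibitory receptors, members of the MS4A family of membrane proteins, lysosomal proteins for digesting what they engulf, and secreted proteins of the matrix and of coagulation. BET proteins bind acetylated chromatin at enhancers and promoters and help release RNA polymerase, and their inhibitors are known to lower inflammatory transcripts of cultured macrophages. Several of the 33 genes are also expressed by neutrophils, resident macrophages or hepatocytes. In bulk blood, fewer monocytes and less of a transcript per monocyte cannot be told apart.

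The arrays were not alike in ways that touch these genes. The median intensity as deposited ran from 3.61 on 1 mg/kg replicate 1 to 25.4 on 1 mg/kg replicate 4. Transcripts of hepatocytes, a cell type that whole blood should not hold, were present on most arrays. The mean log2 value of 15 hepatocyte genes was 4.33 on vehicle replicate 2, 4.25 on 5 mg/kg replicate 5, 6.03 on 1 mg/kg replicate 1 and between 8.06 and 12.2 on the others. The log2 signal of 18S ribosomal RNA was 10.2 to 12.3 with vehicle, 9.58 to 10.7 at 1 mg/kg and 8.83 to 9.88 at 5 mg/kg. Erythroid markers, which define whole blood, averaged 8.06 to 9.46 on the 15 arrays. For the genes that followed these arrays most, and for the median, values without them are given beside the result.

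Most of the genes were lower with the compound, and none of the 27 tested among the 28 passed over all genes. At 5 mg/kg 22 of the 27 tested were lower than with vehicle, with a median log2 difference of -0.56, where 53.4% of all 12499 genes tested were lower and their median was -0.03. At 1 mg/kg 21 of the 27 were lower, with a median of -0.27, against 53% and -0.02 over all genes. With the 5 added genes, 27 of 32 were lower at 5 mg/kg and 26 at 1 mg/kg, with medians of -0.59 and -0.40. Differences ran from -1.67 for Plac8 to 0.57 for Mgst1 at 5 mg/kg, and from -1.68 to 0.78 for the same genes at 1 mg/kg. Cd33 was at the floor on all 15 arrays and was not tested.

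By limma, with Benjamini-Hochberg adjustment over all genes, 0 of the 27 had an adjusted p under 0.05 at either dose, where 11 of all genes (0.088%) passed at 5 mg/kg, 8 of them lower (0.064%), and 1, lower, at 1 mg/kg (0.008%). The smallest adjusted p was 0.0611 at 5 mg/kg (Plac8) and 0.165 at 1 mg/kg (Plac8 and Ms4a4c). At an unadjusted limma p under 0.05, 12 of the 27 were lower at 5 mg/kg and 0 higher, against 4.26% of all genes lower and 3.51% higher (7.78% in all). At 1 mg/kg 9 of the 27 were lower and 0 higher, against 4.06% of all genes lower and 1.97% higher (6.03% in all). Both comparisons use the same vehicle arrays, so their counts are not independent of each other. The 27 were chosen with earlier results of these data known, so an excess over the shares of all genes is not an independent result. The p-values measure the spread between these mice, and 5 arrays per group limit their precision.

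**Figure D1:**
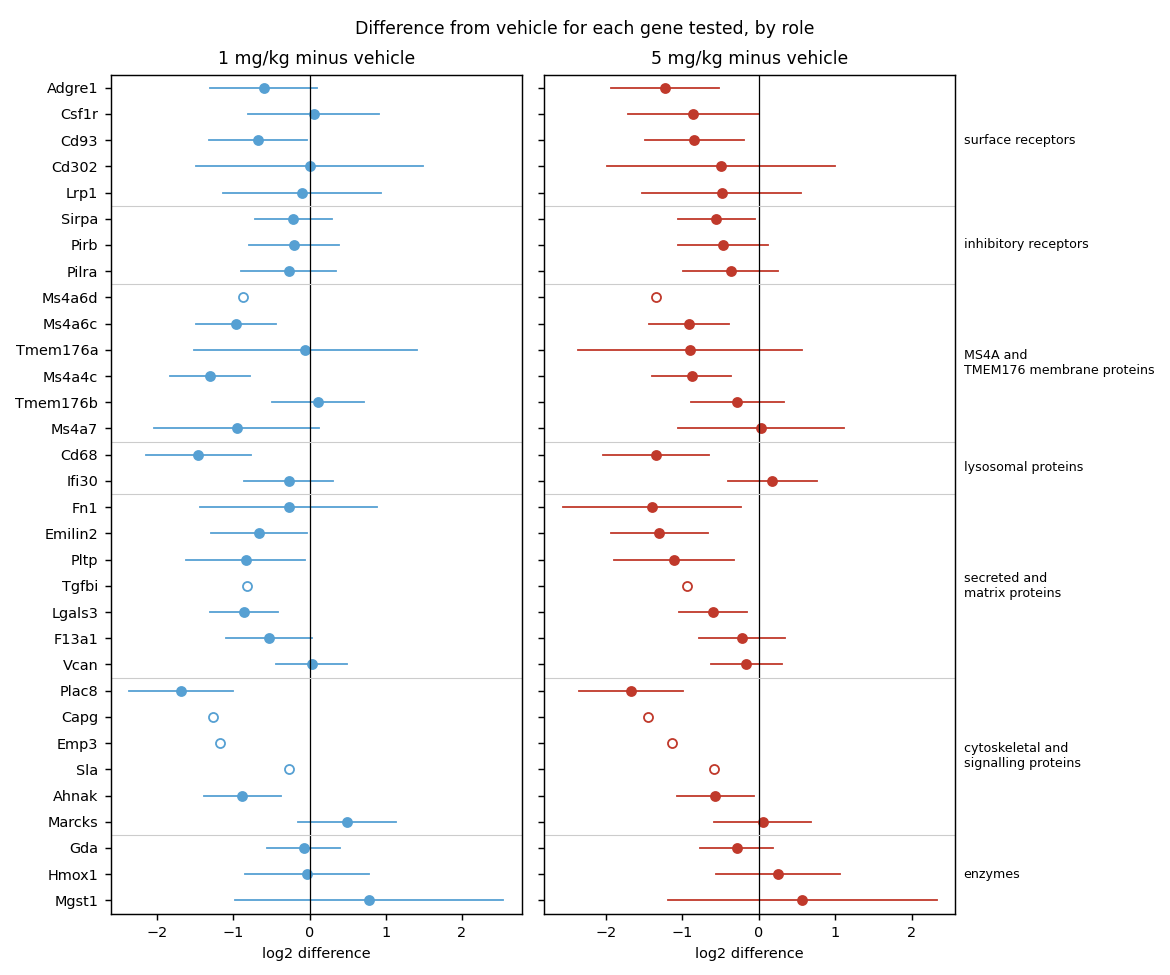
Log2 difference from vehicle at 1 mg/kg (left) and 5 mg/kg (right) for the 32 genes above the floor, grouped by role, with bars for the 95% interval from limma. Open points are the 5 genes added for their fall, shown without an interval. Most points lie left of 0 on both sides, and Mgst1 lies right of 0 on both.

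In 6 of the 27 (22.2%) the highest 5 mg/kg array was below the lowest vehicle array, as in 1.46% of all genes. These were Cd93, Sirpa, Ms4a4c, Cd68, Pltp and Plac8. At 1 mg/kg the same held for 5 of the 27 (18.5%), namely Ms4a4c, Cd68, Lgals3, Ahnak and Plac8, and for 0.72% of all genes. The genes below vehicle on all 10 treated arrays were Plac8, Cd68 and Ms4a4c. The share of all genes separate at both doses was not computed, and the doses share their vehicle arrays, so this set has no background to be read against. Of the 5 added genes, Tgfbi, Capg and Emp3 were below vehicle on all arrays of both doses, Ms4a6d at 5 mg/kg only and Sla at neither. This holds for the brightest probe sets. In another set Sla and Ms4a6d were each below vehicle on all arrays of both doses, and in another set Tgfbi overlapped vehicle at 1 mg/kg. Cd93, Sirpa and Pltp each overlapped vehicle at 5 mg/kg in a dimmer set, which was at the floor on some vehicle arrays. Csf1r and Marcks, which are not among those named, were each below vehicle on all 5 mg/kg arrays in another set.

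The 250 bases before the start of Plac8, Cd68 and Ms4a4c are shown because they are the genes of the 28 whose values were separate at both doses. Sequences and coordinates are from RefSeq on mouse build GRCm38.p6, each written 5' to 3' on the strand of the gene. Capitals mark GAGGAA on either strand (TTCCTC when read backwards), the core of the motif of PU.1, the transcription factor that specifies myeloid cells. Plac8 (chr5:100572206-100572455, minus strand, the outer of its RefSeq starts) held the motif at 2 places, while the promoter of its other RefSeq start held it at 0, Cd68 (chr11:69666171-69666420, minus strand) at 1 and Ms4a4c (chr19:11407411-11407660, plus strand) at 1.
Plac8: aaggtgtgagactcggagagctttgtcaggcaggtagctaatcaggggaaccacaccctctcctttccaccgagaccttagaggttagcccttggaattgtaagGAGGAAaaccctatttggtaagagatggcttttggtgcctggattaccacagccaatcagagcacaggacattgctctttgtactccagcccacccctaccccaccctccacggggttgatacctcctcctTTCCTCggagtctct
Cd68: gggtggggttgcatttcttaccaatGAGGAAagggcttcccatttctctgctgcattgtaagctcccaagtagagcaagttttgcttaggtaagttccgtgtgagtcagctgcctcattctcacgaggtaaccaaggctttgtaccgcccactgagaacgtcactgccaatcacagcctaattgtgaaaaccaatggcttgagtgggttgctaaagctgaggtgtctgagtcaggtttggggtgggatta
Ms4a4c: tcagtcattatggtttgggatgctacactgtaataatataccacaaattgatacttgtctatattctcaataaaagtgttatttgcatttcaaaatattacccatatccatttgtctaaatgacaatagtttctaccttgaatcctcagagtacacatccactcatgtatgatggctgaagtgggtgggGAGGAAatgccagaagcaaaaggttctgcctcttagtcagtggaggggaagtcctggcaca

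Promoters were listed for 24 of the 33 genes, 33 promoters in all. GAGGAA was found in 12 of them (36.4%) and in 23.3% of all 32851 promoters of this length. The C/EBP motif TTGCNNAA was found in 8 (24.2%), against 9.56% of all. The AP-1 motif TGANTCA was found in 2 (6.06%), one of them the promoter of Cd68, which held it at 2 places, against 6.75% of all. Motifs were searched on both strands, and a stretch could count for more than 1 motif. A match is a stretch of letters and not evidence of binding.

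Among the surface receptors, all 5 tested were lower at 5 mg/kg, by a median of -0.84, and 3 of 5 at 1 mg/kg. Adgre1 encodes F4/80, an adhesion receptor that marks mouse macrophages. Adgre1 stood at 7.90, 7.57, 6.16, 7.58 and 6.91 with vehicle, 6.36, 6.37, 7.20, 6.56 and 6.62 at 1 mg/kg and 6.91, 6.03, 5.71, 5.39 and 5.97 at 5 mg/kg. It was below the lowest vehicle array on 4 of 5 arrays at 5 mg/kg, and the groups overlapped at both doses. The difference was -1.22 ± 0.33 (SE, n = 5 per group; limma adjusted p = 0.227) at 5 mg/kg and -0.60 ± 0.33 at 1 mg/kg.

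Cd93 is a lectin-like receptor of monocytes and endothelial cells that takes part in the removal of dying cells. Cd93 read 4.89, 4.97, 5.03, 6.28 and 5.36 with vehicle, 4.59, 4.93, 4.17, 4.00 and 5.47 at 1 mg/kg and 4.14, 4.78, 4.36, 4.57 and 4.49 at 5 mg/kg. All arrays at 5 mg/kg lay below all vehicle arrays, while at 1 mg/kg replicate 5 was as high as the upper vehicle arrays and replicate 4 was at the floor. Its difference was -0.84 ± 0.30 at 5 mg/kg (SE; limma adjusted p = 0.436) and -0.68 ± 0.30 at 1 mg/kg. Csf1r, the receptor for colony-stimulating factor 1 on which monocytes and macrophages depend, differed by -0.86 (95% interval -1.71 to 0.00) at 5 mg/kg and by 0.05 (95% interval -0.81 to 0.91) at 1 mg/kg. Its vehicle arrays ran from 7.70 to 9.67, its 1 mg/kg arrays from 7.91 to 9.66 and its 5 mg/kg arrays from 7.48 to 8.37. Lrp1, an endocytic scavenger receptor, and Cd302, an endocytic lectin, differed by -0.48 and -0.50 at 5 mg/kg, with intervals that include 0. Both values depended on the arrays and covariates used. Lrp1 gave -0.14 without vehicle replicate 1 and 0.80 with the 18S signal as a covariate. Cd302 gave -0.09 without 5 mg/kg replicate 5 and 1.09 ± 1.04 (SE) with that covariate. The 18S signal of every 5 mg/kg array was below that of every vehicle array, so as a covariate it cannot be told apart from that dose. Cd302 at 1 mg/kg gave -0.66 without replicate 4 and 0.53 without replicate 1 of that dose.

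The inhibitory receptors, which damp signalling in myeloid cells, were lower in all 3 tested, with a median of -0.46 at 5 mg/kg and -0.21 at 1 mg/kg. Sirpa, the receptor for CD47 that restrains engulfment, had 5 mg/kg arrays of 6.97 to 7.91, all below the vehicle arrays of 7.99 to 8.32. Its difference there was -0.56 ± 0.24 (SE; limma adjusted p = 0.575), and at 1 mg/kg it was -0.21 with arrays of 7.51 to 8.69. Pirb, a receptor for class I molecules, and Pilra, a paired immunoglobulin-like receptor, differed by -0.46 and -0.36 at 5 mg/kg and overlapped vehicle. Cd33, a sialic acid-binding lectin, was the gene at the floor on every array.

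Of the MS4A and TMEM176 genes, which encode small proteins that cross the membrane 4 times, 5 of 6 were lower at each dose, with medians of -0.89 at 5 mg/kg and -0.91 at 1 mg/kg. Without Ms4a6d, which was added for its fall, it was 4 of 5 at each dose, with medians of -0.88 and -0.96. The 4 MS4A genes lie together on chromosome 19 and the 2 TMEM176 genes on chromosome 6. Ms4a4c stood at 6.63, 7.63, 7.15, 6.81 and 6.59 with vehicle, 5.71, 6.22, 5.74, 5.35 and 5.25 at 1 mg/kg and 6.09, 5.68, 6.01, 6.46 and 6.19 at 5 mg/kg. Every treated array was below every vehicle array, and the 1 mg/kg arrays tended to be the lower of the treated ones. Its difference was -0.88 ± 0.24 (SE; limma adjusted p = 0.247) at 5 mg/kg and -1.31 ± 0.24 (limma adjusted p = 0.165) at 1 mg/kg, and the 95% interval between the doses ran from -0.09 to 0.95.

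Ms4a6c read 7.76, 8.02, 8.39, 8.06 and 7.33 with vehicle, 6.47, 7.46, 6.55, 6.90 and 7.34 at 1 mg/kg and 7.17, 7.34, 6.75, 7.03 and 6.72 at 5 mg/kg. The groups met only at vehicle replicate 5, the lowest vehicle array, which the highest arrays of each dose just passed. The difference was -0.91 ± 0.25 at 5 mg/kg (SE; limma adjusted p = 0.227) and -0.97 ± 0.25 at 1 mg/kg. Ms4a6d, 1 of the 5 added genes, read 5.97, 5.62, 5.82, 5.83 and 4.94 with vehicle, 4.00, 4.84, 5.83, 4.35 and 4.82 at 1 mg/kg and 4.00, 4.00, 4.50, 4.00 and 4.94 at 5 mg/kg. It was at the floor on 3 of 5 arrays at 5 mg/kg, and 5 mg/kg replicate 5 was only just below the lowest vehicle array, so its difference of -1.35 depends on where the floor was set.

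Ms4a7, a marker of tissue macrophages, differed by 0.03 at 5 mg/kg and -0.96 at 1 mg/kg, with 5 mg/kg arrays spread from the floor to 6.79. Tmem176a and Tmem176b, proteins of endosomes in antigen-presenting cells, differed by -0.89 (95% interval -2.36 to 0.57) and -0.28 (95% interval -0.88 to 0.32) at 5 mg/kg.

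The lysosomal proteins went apart. Cd68, a heavily glycosylated protein of macrophage lysosomes, stood at 6.74, 6.82, 6.66, 6.45 and 5.99 with vehicle, 4.29, 5.72, 5.93, 5.43 and 4.00 at 1 mg/kg and 5.13, 5.09, 5.35, 5.25 and 5.13 at 5 mg/kg. All 10 treated arrays lay below the vehicle arrays, the 5 mg/kg arrays within a narrow range and the 1 mg/kg arrays widely spread, with replicate 5 at the floor. Cd68 was 2.53-fold lower at 5 mg/kg (-1.34 ± 0.33, SE; limma adjusted p = 0.152) and 2.75-fold lower at 1 mg/kg (-1.46 ± 0.33; limma adjusted p = 0.351). Under 3 of 18 other settings Cd68 passed at 5 mg/kg, and its adjusted p by limma over those settings ran from 0.00893 to 1.00. With the 18S signal as a covariate, which cannot be told apart from dose here, its difference was -0.73. Ifi30, the thiol reductase that opens proteins for antigen presentation, differed by 0.18 (95% interval -0.41 to 0.76) at 5 mg/kg.

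All 7 secreted and matrix proteins were lower at 5 mg/kg, by a median of -0.94, and 6 of 7 at 1 mg/kg, by -0.66. These counts include Tgfbi, which was added for its fall, and without it all 6 were lower at 5 mg/kg (median -0.85) and 5 of 6 at 1 mg/kg (-0.60). Emilin2, a glycoprotein of elastic fibres, stood at 8.10, 7.43, 6.74, 7.62 and 6.51 with vehicle, 6.41, 6.53, 7.02, 6.38 and 6.75 at 1 mg/kg and 6.66, 6.03, 5.73, 6.05 and 5.43 at 5 mg/kg. At 5 mg/kg 4 of 5 arrays lay below the lowest vehicle array, and the 1 mg/kg arrays overlapped both other groups. Its difference was -1.30 ± 0.30 (SE; limma adjusted p = 0.124) at 5 mg/kg and -0.66 ± 0.30 at 1 mg/kg.

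Fn1, which encodes fibronectin, read 9.31, 7.42, 6.86, 8.16 and 7.07 with vehicle, 6.90, 6.61, 7.99, 8.70 and 7.26 at 1 mg/kg and 7.54, 4.78, 7.04, 6.33 and 6.15 at 5 mg/kg. The groups overlapped, and 2 arrays stood out, vehicle replicate 1 as the highest and 5 mg/kg replicate 2 as the lowest. Its difference at 5 mg/kg was -1.40 ± 0.55 (SE; limma adjusted p = 0.515). At 1 mg/kg it was -0.28 ± 0.55, and it turned to 0.11 without vehicle replicate 1.

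Pltp encodes a plasma protein that moves phospholipids between lipoproteins. Pltp stood at 8.56, 8.20, 7.47, 8.18 and 7.45 with vehicle, 6.46, 6.79, 8.46, 7.48 and 6.49 at 1 mg/kg and 7.42, 7.21, 6.84, 6.32 and 6.52 at 5 mg/kg. All arrays at 5 mg/kg were below all vehicle arrays, the nearest pair close together, and 1 mg/kg replicate 3 was among the highest of all. The difference was -1.11 ± 0.37 at 5 mg/kg (SE; limma adjusted p = 0.357) and -0.84 ± 0.37 at 1 mg/kg.

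Lgals3, the sugar-binding galectin-3 that activated macrophages release, read 8.40, 8.68, 8.42, 8.38 and 7.89 with vehicle, 7.26, 7.81, 7.84, 7.30 and 7.26 at 1 mg/kg and 7.52, 7.39, 7.95, 8.03 and 7.91 at 5 mg/kg. Here the 1 mg/kg arrays were the ones below all vehicle arrays, while 3 of the 5 mg/kg arrays exceeded the lowest vehicle array. The difference was -0.59 ± 0.21 at 5 mg/kg (SE; limma adjusted p = 0.412) and -0.86 ± 0.21 at 1 mg/kg (limma adjusted p = 0.394). Tgfbi, a matrix protein induced by TGF-beta and added for its fall, stood at 8.15, 7.91, 7.98, 8.20 and 7.74 with vehicle, 7.40, 7.11, 7.56, 7.02 and 6.75 at 1 mg/kg and 7.17, 6.87, 7.14, 6.92 and 7.16 at 5 mg/kg. All treated arrays lay below all vehicle arrays, with means apart by -0.94 at 5 mg/kg and -0.83 at 1 mg/kg. F13a1, the catalytic chain of coagulation factor XIII, and Vcan, the proteoglycan versican, differed by -0.22 and -0.16 at 5 mg/kg, and Vcan was above the floor on 2 of 5 arrays there, against 3 of 5 with vehicle.

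The cytoskeletal and signalling proteins held the largest difference. Plac8, a small cysteine-rich protein of myeloid and lymphoid cells, stood at 9.53, 10.38, 10.33, 10.36 and 9.79 with vehicle, 7.42, 9.02, 8.82, 8.49 and 8.23 at 1 mg/kg and 8.35, 7.55, 8.54, 8.99 and 8.61 at 5 mg/kg. Every treated array was below every vehicle array, and the lowest values were those of 1 mg/kg replicate 1 and 5 mg/kg replicate 2. Plac8 was 3.18-fold lower at 5 mg/kg (-1.67 ± 0.32, SE; limma adjusted p = 0.0611) and 3.21-fold lower at 1 mg/kg (-1.68 ± 0.32; limma adjusted p = 0.165). Under 5 of 19 other settings it passed at 5 mg/kg, and over those settings its adjusted p by limma ran from 0.0157 to 1.00. It also passed without 1 mg/kg replicate 1 (adjusted p = 0.0250 by limma).

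Capg, which caps actin filaments, read 6.25, 7.04, 6.83, 6.85 and 6.58 with vehicle, 5.05, 5.09, 5.96, 5.66 and 5.43 at 1 mg/kg and 4.82, 4.51, 5.85, 6.04 and 5.11 at 5 mg/kg. Emp3, a membrane protein related to the claudins, read 8.14, 8.06, 7.62, 7.92 and 7.41 with vehicle, 6.86, 6.88, 6.93, 6.12 and 6.52 at 1 mg/kg and 6.76, 5.93, 6.96, 6.99 and 6.84 at 5 mg/kg. Both were added for their fall, and for both all 10 treated arrays lay below all vehicle arrays. Capg differed by -1.44 at 5 mg/kg and -1.27 at 1 mg/kg, and Emp3 by -1.13 and -1.17. Sla, an adaptor that dampens antigen receptor signalling and the last of the added genes, stood at 5.72, 7.02, 6.45, 6.47 and 6.03 with vehicle, 7.37, 5.70, 5.97, 5.41 and 5.90 at 1 mg/kg and 5.32, 5.60, 6.54, 5.91 and 5.36 at 5 mg/kg. Its groups overlapped at both doses, and the highest of its values was that of 1 mg/kg replicate 1, the array of lowest median intensity.

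Ahnak, a very large scaffold protein of the membrane skeleton, differed by -0.57 ± 0.24 (SE) at 5 mg/kg and by -0.88 ± 0.24 at 1 mg/kg, where its arrays of 6.34 to 7.13 touched none of the vehicle arrays of 7.15 to 8.21. Marcks, a substrate of protein kinase C that binds actin, was 1 of 2 genes higher at both doses. Its brightest probe set stood at 6.38, 6.32, 5.98, 6.58 and 6.95 with vehicle, 7.95, 6.28, 7.17, 6.19 and 7.07 at 1 mg/kg and 6.68, 6.75, 6.10, 6.42 and 6.50 at 5 mg/kg. The groups overlapped, and 1 mg/kg replicate 1 was again the highest. The difference was 0.05 (95% interval -0.59 to 0.69) at 5 mg/kg and 0.49 (95% interval -0.15 to 1.13) at 1 mg/kg. Without that array the same probe set gave 0.23 at 1 mg/kg and 0.05 at 5 mg/kg, but another set of the gene was then the brightest, and it gave -0.54 and -0.56.

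**Figure D2:**
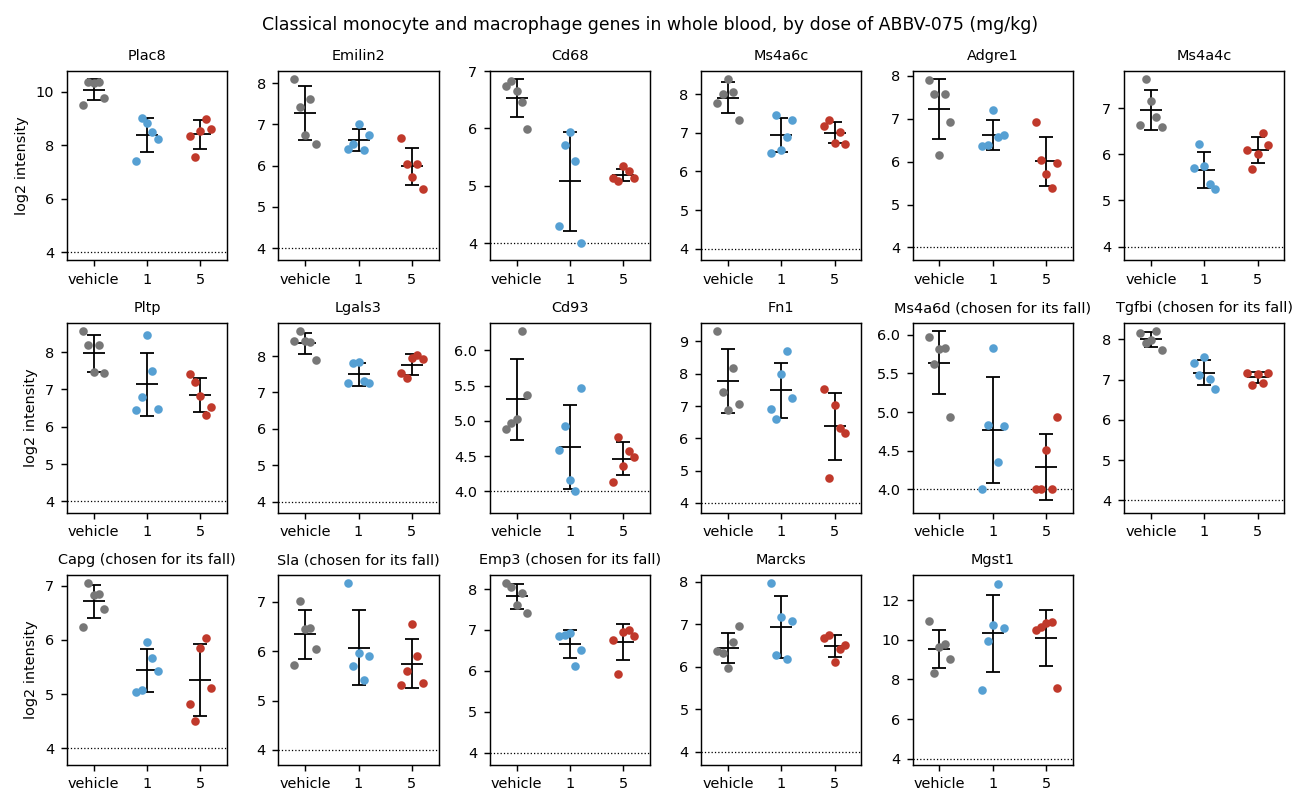
Log2 intensity of 17 genes on each of the 15 arrays, by dose of ABBV-075 in mg/kg (5 arrays per group), with the mean and SD as bars and the floor of 4.00 as a dotted line. For Plac8, Cd68 and Ms4a4c every treated point lies below every vehicle point, whereas for Fn1, Marcks and Mgst1 the groups overlap.

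The 3 enzymes showed no common direction. Mgst1, a glutathione transferase of the endoplasmic reticulum that is abundant in liver, was higher at both doses. Mgst1 stood at 10.94, 8.31, 9.65, 9.76 and 9.01 with vehicle, 7.48, 9.94, 10.77, 12.82 and 10.59 at 1 mg/kg and 10.49, 10.64, 10.86, 10.91 and 7.59 at 5 mg/kg. The lowest arrays of each group were vehicle replicate 2, 1 mg/kg replicate 1 and 5 mg/kg replicate 5, the 3 arrays of lowest hepatocyte marker mean, and the highest was 1 mg/kg replicate 4, where that mean was 12.2. The difference was 0.57 (95% interval -1.19 to 2.32) at 5 mg/kg and 0.78 (95% interval -0.97 to 2.54) at 1 mg/kg. At 5 mg/kg it ran from 0.26 without vehicle replicate 2 to 1.19 without 5 mg/kg replicate 5, and at 1 mg/kg from 0.17 without replicate 4 to 1.49 without replicate 1 of that dose. With the hepatocyte marker mean as a covariate, chosen after seeing the data, it was 0.22 at 5 mg/kg and 0.06 at 1 mg/kg. Hmox1, which breaks down heme, and Gda, which deaminates guanine, differed by 0.25 (95% interval -0.57 to 1.06) and -0.29 (95% interval -0.77 to 0.19) at 5 mg/kg.

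The Entrez Gene identifiers of the genes given array by array were 231507 (Plac8), 246707 (Emilin2), 12514 (Cd68), 13733 (Adgre1), 73656 (Ms4a6c), 64380 (Ms4a4c), 18830 (Pltp), 16854 (Lgals3), 17064 (Cd93), 14268 (Fn1), 68774 (Ms4a6d), 21810 (Tgfbi), 12332 (Capg), 20491 (Sla), 13732 (Emp3), 17118 (Marcks) and 56615 (Mgst1).

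Between the doses no gene of the 33 passed the test. At 5 mg/kg against 1 mg/kg 17 of the 27 were lower, with a median of -0.21, and 0 passed (0 of all genes, or 0%, by limma, and 987 at an unadjusted p under 0.05). At that unadjusted p 2 of the 27 were lower and 0 higher, against 2.63% of all genes lower and 5.26% higher (7.9% in all). They were Csf1r, with -0.91 ± 0.40 (SE; limma adjusted p = 0.608), and Emilin2, with -0.64 ± 0.30 (limma adjusted p = 0.631). The value of Csf1r is that of its brightest probe set, and its other sets gave -0.32 and 0.13 between the doses. For Plac8 the doses differed by 0.01 (95% interval -0.66 to 0.69), for Cd68 by 0.12 (95% interval -0.58 to 0.81) and for Fn1 by -1.12 (95% interval -2.29 to 0.04).

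Probe sets of one gene mostly had the same sign. The 33 genes have 78 probe sets, of which 59 were above the floor on at least 5 arrays. Of those, 54 were lower at 5 mg/kg and 52 at 1 mg/kg, and leaving out the genes added for their fall it was 41 and 39 of 46. Marcks was the main exception: its other 6 probe sets were all lower at both doses, down to -0.96 at 5 mg/kg and -1.07 at 1 mg/kg, against 0.05 and 0.49 in the brightest. The mean over its probe sets was -0.58 at 1 mg/kg, opposite in sign to the brightest set.

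For Sla the other probe sets gave -1.02, -1.14 and -2.22 at 5 mg/kg, against -0.59 in the brightest, and those of Tgfbi gave -1.41, -1.42 and -1.71, against -0.94. The 3 probe sets of Csf1r gave -0.52 to -0.86 at 5 mg/kg but -0.65 to 0.05 at 1 mg/kg. The second probe set of Fn1, near the floor, gave -0.28 at 5 mg/kg where the first gave -1.40. Ms4a6d had a second set above the floor on 5, 2 and 0 arrays with vehicle, 1 mg/kg and 5 mg/kg. The other tested probe set of Ms4a4c gave -1.02 at 5 mg/kg and -1.43 at 1 mg/kg, and Plac8 and Cd68 are among the 13 genes with a single probe set.

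**Figure D3:**
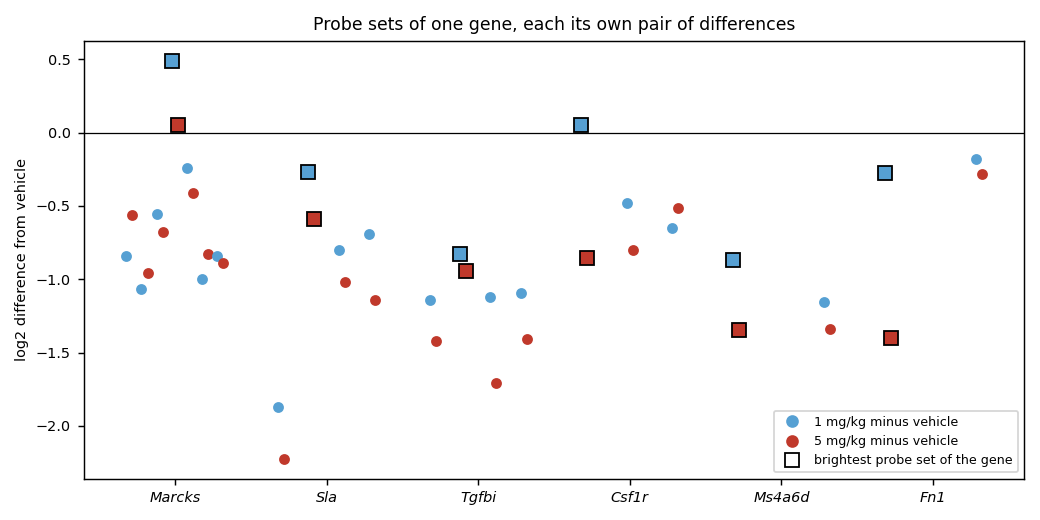
Log2 difference from vehicle in each probe set above the floor on at least 5 arrays for 6 genes, at 1 mg/kg (blue) and 5 mg/kg (red), with the brightest set of each gene as an outlined square. The brightest set of Marcks lies above 0 at both doses while its 6 other sets lie below.

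Other genes of classical monocytes, outside the 33, were lower as well. The list was chosen with earlier results of these data known, so its fall is not an independent result. Of 30 listed, 24 were tested and 22 were lower at 5 mg/kg, with a median of -0.74. By the test over all genes 2 of the 24 fell, against 8 of all 12499 genes (0.064%). Mpeg1, the pore-forming protein perforin-2, had means of 8.32 ± 0.18 (vehicle), 7.02 ± 0.52 on 1 mg/kg arrays and 6.10 ± 0.67 on 5 mg/kg arrays (SD, n = 5 each; limma adjusted p = 0.0043 at 5 mg/kg). Ccr1, a chemokine receptor, had means of 6.80 ± 0.51 (vehicle), 5.81 ± 0.79 on 1 mg/kg arrays and 4.70 ± 0.36 on 5 mg/kg arrays (limma adjusted p = 0.0236 at 5 mg/kg). Ccr2, which guides monocytes out of the marrow, differed by -1.77 ± 0.37 (SE; limma adjusted p = 0.0905) and Cebpb, a transcription factor of myeloid cells, by -0.94 ± 0.21 (limma adjusted p = 0.108). At 1 mg/kg 20 of the 24 were lower, with a median of -0.60, and 0 passed by limma. At an unadjusted limma p under 0.05, 14 of the 24 were lower and 0 higher there, against 4.06% of all genes lower and 1.97% higher.

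The lists for other blood cells went either way. Nonclassical monocyte genes were lower in 9 of 11 tested at 5 mg/kg (median -0.37), dendritic cell genes in 7 of 7 (-0.37), mature neutrophil genes in 10 of 12 (-0.40), NK cell genes in 7 of 8 (-0.39) and platelet genes in 9 of 9 (-0.22). B cell genes were higher in 7 of 9 (0.61) and T cell genes in 6 of 7 (0.26). Of 10 listed genes of eosinophils and basophils only 2 were tested, 1 lower and 1 higher, with a median of -0.99 that rests on Alox15 (-2.14), a gene also on the peritoneal macrophage list. Immature neutrophil granule genes had a median of 0.13 over 6 tested and erythroid genes -0.12 over 7. By limma 0 of the 78 genes tested in these lists passed over all genes, where 0.088% of all genes did. At an unadjusted limma p under 0.05 there were 16 of the 78, in either direction, against 7.78% of all genes.

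Markers of tissue macrophages varied from array to array. Their correlation with the 33 genes was not computed. Of 17 listed genes of resident tissue macrophages 14 were tested and 11 were lower at 5 mg/kg, with a median of -0.46. Their summed level, given as the mean log2 value of those tested, was 5.09 to 6.69 with vehicle, 5.04 to 6.46 at 1 mg/kg and 4.82 to 5.90 at 5 mg/kg. Of the 17, only 1 was at the floor on all arrays, namely Cd163, a scavenger receptor of many tissue macrophages. Of 14 genes known from peritoneal macrophages, a list chosen after seeing the data, 12 were tested and all 12 were lower at each dose. The list shares Timd4 with the resident macrophage list, Selp with the platelet list and Alox15 with the eosinophil and basophil list. Their mean was 5.30 to 7.08 with vehicle, 5.58 to 6.62 at 1 mg/kg and 5.02 to 6.26 at 5 mg/kg. The highest values were those of vehicle replicate 1, vehicle replicate 2, 1 mg/kg replicate 3 and vehicle replicate 4, and vehicle replicate 3 was near the level of the 5 mg/kg arrays.

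**Figure D4:**
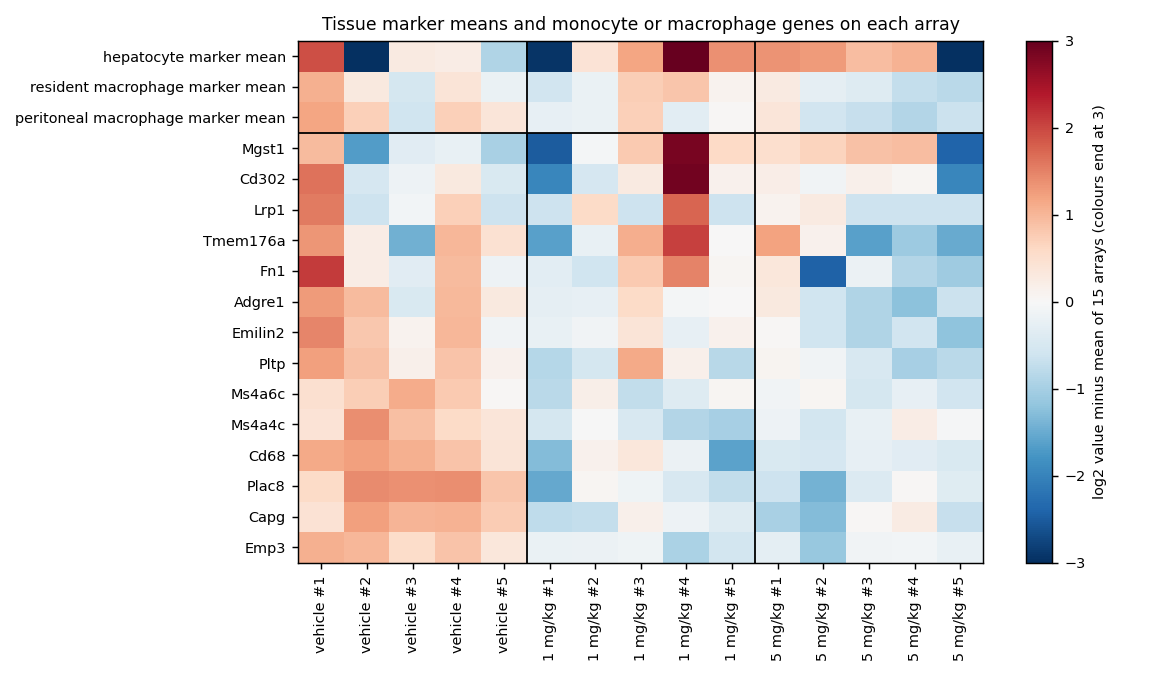
Mean log2 value of 3 tissue marker lists (top 3 rows) and log2 value of 14 genes on each array, as the difference from that row's mean over the 15 arrays, with colours ending at a difference of 3 either way. Fn1, Adgre1 and Tmem176a are below their own mean on vehicle replicate 3, as the peritoneal macrophage marker mean is, while Emilin2 and Pltp are slightly above theirs. Mgst1 and Cd302 are low on the arrays with little hepatocyte signal.

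With the peritoneal macrophage marker mean as a covariate, also chosen after seeing the data, the genes split. That mean itself fell, averaging 5.42 on the 5 mg/kg arrays against 6.38 for vehicle, with 5.90 at the lower dose. Adjusting for it can therefore also remove part of any difference that runs with dose. The split thus cannot tell peritoneal macrophages apart from dose. At 5 mg/kg the difference of Adgre1 was -0.26 with it and -1.22 without, that of Emilin2 -0.61 and -1.30, that of Fn1 -0.43 and -1.40, that of Pltp -0.31 and -1.11 and that of Csf1r -0.34 and -0.86. Tmem176a had the opposite sign, with 0.58 against -0.89. By contrast Plac8 stood at -1.77 with it and -1.67 without, Cd68 at -1.19 and -1.34, Ms4a6c at -1.06 and -0.91, and Ms4a4c at -0.98 and -0.88. Of the added genes, Capg stood at -1.60 with it and -1.44 without, Emp3 at -0.92 and -1.13 and Tgfbi at -0.78 and -0.94.

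The median over the 32 genes was -0.31 with that covariate and -0.59 without. The 32 include the 5 genes added for their fall, and over the other 27 the median without a covariate was -0.56. For the 27 alone, medians with a covariate or with arrays left out were not computed, so those here describe all 32. Without the 2 arrays of hepatocyte marker means near the floor (vehicle replicate 2 and 5 mg/kg replicate 5) it was -0.64, with Plac8 at -1.64, Cd68 at -1.25, Emilin2 at -1.13 and Adgre1 at -1.13. With the resident tissue macrophage marker mean as a covariate the median was -0.56 (24 of 32 lower), and with the hepatocyte marker mean -0.68 (27 of 32 lower). Beyond these covariates, the part of such cells in the differences was not tested, and a covariate that fell with dose cannot separate it from dose.

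**Figure D5:**
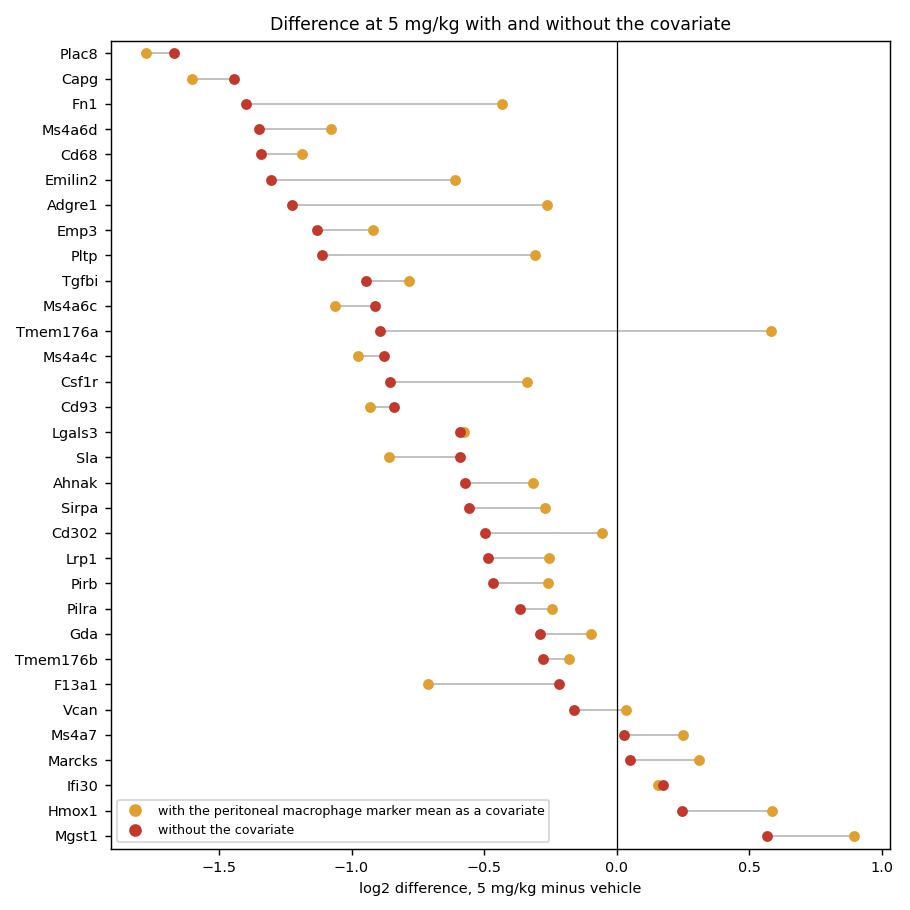
Log2 difference at 5 mg/kg from vehicle for the 32 genes with the peritoneal macrophage marker mean as a covariate (yellow) and without it (red). Adgre1, Emilin2, Fn1, Pltp and Tmem176a move toward or past 0, while Plac8, Capg, Ms4a6c and Ms4a4c stay at or left of their value without it. The marker mean was itself lower on average with the compound, so it is not separate from dose.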

How the data were processed

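The data are intensities per probe set from whole blood RNA of 15 mice, 1 array each, deposited by the authors as 1 table of 45101 probe sets. The scale was read from the values (linear, some below 0). The deposited intensity values came from software and a normalisation not given in the sources used here. RNA was purified with Qiazol and RNeasy and 200 ng was amplified, per the labels' protocols.

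After removal of 64 control probe sets, values were quantile-normalised, set to a floor of 16 where lower (52.7% of values) and put on a log2 scale. The floor and filter follow earlier work on these data. Names come from GEO's platform annotation, in which 34945 probe sets have 1 gene, 932 several and 9160 none listed, and 0 symbols changed through Entrez identifiers. Each gene took its probe set of highest mean, and 12499 of 18193 genes, above the floor on at least 5 arrays, were tested. Groups were taken from sample titles. The test was limma's moderated test (version 3.58.1, under R version 4.3.3; lmFit, then eBayes, two-sided; 12 residual and 3.904 prior degrees of freedom), fitted to all 15 arrays, with Benjamini-Hochberg adjustment and a threshold of 0.05. The median standard error was 0.289. On simulated data for 5 mg/kg against vehicle with 12499 genes, 34% of changes of log2 size 1 and 82% of log2 size 2 were recovered, with 2 false calls.

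The members and lists were chosen with earlier results of these data known. Array values are given for the 10 members of smallest p at 5 mg/kg among the 28 not added for their fall, for the 5 added and for any higher at both doses. Up to 4 genes per other list could be named by the same p. The lists were other classical monocyte genes, nonclassical monocytes, resident tissue macrophages, mature and immature neutrophils, dendritic cells, eosinophils and basophils, B, T and NK cells, platelets and erythroid cells, and, chosen after seeing the data, hepatocytes and peritoneal macrophages. Alternatives covered scaling, floor, filter, choice of probe set, model, covariates and leaving out arrays.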

Additional observations from a re-analysis of the deposited data

Results flagged for a closer look

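In 6 of 96 groups of 5 arrays (32 genes in 3 groups each) 1 array stood farther from its neighbours than Dixon's critical value for 5 samples allows. Chance alone marks about 5% of groups. At 5 mg/kg, replicate 5 gave Cd302 a value of 4.00 where the other arrays of the dose lay at 5.85 to 6.16, and Mgst1 a value of 7.59 against 10.5 to 10.9. The hepatocyte marker mean of that array was 4.25, against 9.89 to 10.3 on the others of its dose. On 5 mg/kg replicate 2, Emp3 was at 5.93 against 6.76 to 6.99 and Vcan at 4.52 against 4.00 to 4.15. F13a1 was at 7.97 on 5 mg/kg replicate 1, against 8.56 to 8.65 on the others of that dose. Sla was at 7.37 on 1 mg/kg replicate 1, the array of lowest median intensity, against 5.41 to 5.97 on the others of that dose. The causes were not tested.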

How the results depend on the processing

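Under 19 other settings and 15 runs that left out 1 array, 1718 of 1788 and 1437 of 1440 values of members neither crossed the threshold nor were counted as reversed or moved. A value within 1 standard error of 0 was taken to have no direction. For a tested member farther from 0 a change of size alone was not counted, so these counts do not measure how far values moved. Adgre1 at 5 mg/kg was kept in all 19 settings, while its difference ran from -1.36 to -0.26. By sign alone 78 and 71 values differed, 71 and 70 of them for values within 1 standard error of 0 (Lrp1 and Cd302 among them). Counts of genes called at 5 mg/kg against vehicle (11 in the main analysis) were 45 with a floor of 32 (21 higher, 24 lower), 65 with array weights (27 and 38), 33 with the mean of all probe sets (11 and 22), 32 with each probe set on its own (10 and 22), 22 when 1 array above the floor sufficed (11 and 11), 17 with the 2 groups alone (4 and 13), 1 without scaling, 6 with the resident macrophage covariate, 4 without vehicle replicate 2 and 5 mg/kg replicate 5, and 0 with the 18S or the peritoneal macrophage covariate. Leaving out 1 array gave 8 to 22, that is 19 without replicate 1 and 22 without replicate 5 of the 1 mg/kg group. At 1 mg/kg the single call was lost with a floor of 8, where 1 other gene, higher, was called, and there was no call (0) without scaling, when 1 array above the floor sufficed or all 15 were required, without probe sets of suffix _x_at or _s_at, with array weights, the 2 groups alone, the replicate block, the 18S, neutrophil and peritoneal covariates and without those 2 arrays, and leaving out 1 array gave 0 to 2 (0 without replicate 1, 3 or 4 of vehicle or 1, 4 or 5 of the 1 mg/kg group, 2 without replicate 2 of that group). Between the doses a floor of 8 gave 1 call and leaving out 1 array 0 to 1 (1 without vehicle replicate 3 or 5 mg/kg replicate 4).

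Of the tested members, 2 were called at 5 mg/kg with a floor of 32 (Cd68, limma adjusted p = 0.00893, and Plac8, 0.0252) and with array weights (0.0474 and 0.0157). There was 1 with genes above the floor on all 15 arrays (Plac8, 0.0424), the mean of probe sets (Plac8, 0.0454), each probe set on its own (Plac8, 0.0499) and the 2 groups alone (Cd68, 0.0170), and leaving out 1 array gave 0 to 1 (Plac8 without replicate 1 of the 1 mg/kg group, 0.0250). Medians over the members include those added for their fall. At 5 mg/kg the median was -0.31 with the peritoneal macrophage covariate, against -0.59 without. At 1 mg/kg it was -0.62 with the neutrophil covariate, against -0.40. Reversed were Marcks at 1 mg/kg (-0.58 with the mean of probe sets, and -0.54 to 0.67 as 1 array was left out), Tmem176a at 5 mg/kg (0.46 with 18S, 0.25 with the resident and 0.58 with the peritoneal macrophage covariate) and, between the doses, Tmem176a (0.27) and F13a1 (-0.019) with the resident macrophage covariate and Ahnak (-0.0018) with the mean of probe sets. Without 1 mg/kg replicate 1 another probe set of Marcks became the brightest, which gave the -0.54 and, at 5 mg/kg, -0.56, while the set used otherwise gave 0.23 and 0.05. The causes of the others were not tested. The covariates for hepatocytes and for resident and peritoneal macrophages and the removal of 2 arrays were chosen after seeing the data. The 18S signal did not overlap between vehicle and 5 mg/kg, so values and calls with that covariate cannot separate it from dose. The peritoneal macrophage marker mean was lower on average with the compound, so values and calls with it are not free of dose either.

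Replicate numbers showed no sign of pairing the samples. Deviations of same-numbered arrays correlated at -0.275 to 0.355, over 0.1 in 3 of 15 pairs. For arrays of different number and group it was -0.373 to 0.387, over 0.1 in 16 of 60 pairs. These ranges cannot exclude a pairing. With the replicate block 9 genes were called at 5 mg/kg and 0 at 1 mg/kg, and 0 members at either. Probe sets near the floor understate differences, and depth is not defined for intensities.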

Other observations

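Between the doses, 8 of the 9 B cell genes (median 0.91) and 7 of the 7 T cell genes tested (median 0.74) were higher at 5 mg/kg than at 1 mg/kg. By limma 0 of them passed over all genes, as did 0 of all 12499 genes. At an unadjusted limma p under 0.05, 4 of each list were higher, against 5.26% of all genes. Spib, a transcription factor of B cells, had means of 7.54 ± 0.57 (vehicle), 7.72 ± 0.75 on 1 mg/kg arrays and 9.11 ± 0.62 on 5 mg/kg arrays (SD, n = 5 each; limma adjusted p = 0.152 at 5 mg/kg). Ms4a1, which encodes CD20 and is of the same family as the MS4A genes of monocytes, had means of 8.87 ± 0.69 (vehicle), 8.93 ± 0.76 on 1 mg/kg arrays and 10.1 ± 0.38 on 5 mg/kg arrays. Its difference of 1.23 ± 0.37 (SE) at 5 mg/kg has the opposite sign to those of Ms4a4c (-0.88) and Ms4a6c (-0.91). Of the T cell genes Cd3g, a chain of the T cell receptor complex, differed by 1.08 ± 0.35 at 5 mg/kg (SE; limma adjusted p = 0.337).

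The liver transcripts on these blood arrays were abundant where present. Alb, the albumin gene, had log2 values of 13.31, 6.59, 12.60, 12.56 and 11.82 on the vehicle arrays, 9.54, 12.76, 13.10, 13.52 and 13.01 at 1 mg/kg and 13.25, 13.20, 12.86, 13.20 and 6.36 at 5 mg/kg. It was low on vehicle replicate 2, 1 mg/kg replicate 1 and 5 mg/kg replicate 5, 1 array of each group. All 15 hepatocyte genes tested were higher than with vehicle at each dose, with medians of 0.55 at 5 mg/kg and 1.31 at 1 mg/kg, and 0 passed by limma (0 at an unadjusted p under 0.05).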
